A study of Mus musculus with 31 samples.

Results

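Interferon stimulated genes are the genes that a cell switches on when it senses a virus or receives interferon, and 9 of them are described here on every array of a mouse T cell study: Ifit1, Ifit2, Ifit3, Oasl2, Rsad2, Bst2, Isg15, Usp18 and Irf7. They were taken by name, and every probe set that the platform annotation assigns to one of these symbols was used, which gave 11 of the 45101 probe sets of the array. 8 of the 9 genes had a probe set of their own symbol. Isg15 was measured only by a probe set that is also assigned to the gene model Gm9706, so its value is given as that of a shared probe set. Of the 18194 genes represented on the array, 12169 were bright enough to be tested, meaning above the table's median normalised intensity of 39.8 on at least 2 arrays. Among these were 6 members (Ifit1, Ifit2, Ifit3, Oasl2, Rsad2 and Bst2), while Usp18 and Irf7 lay under that median on all 31 arrays.

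Type I interferon binds a receptor made of Ifnar1 and Ifnar2, which signals through the kinases Jak1 and Tyk2, and many genes that answer the signal carry a paired GAAA element in their promoters. The products act at different points of a viral life cycle: Ifit proteins hold viral RNA back from translation, Oasl2 belongs to the oligoadenylate synthetase family that responds to double-stranded RNA, Rsad2 (viperin) makes a nucleotide that ends viral RNA synthesis, and Bst2 (tetherin) keeps budding virions on the cell surface. Isg15 is a ubiquitin-like tag, Usp18 removes that tag and also damps the receptor, and Irf7 is the transcription factor that amplifies interferon production. In T cells and in brain tissue most of these genes are kept at a low resting level and are known as markers of interferon exposure.

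The series compares natural and induced regulatory T cells (Treg) with each other and with conventional T cells. Cells of the Foxp3-intact groups came from bicistronic Foxp3/EGFP mice, in which green fluorescence reports Foxp3, and cells of the delta groups carried the Foxp3deltaEGFP allele. The 31 arrays, 1 per sample, fall by their labels into 10 groups of 2 to 5. Freshly sorted peripheral cells were natural Treg (EGFP+, 4 arrays), conventional T (EGFP-, 3 arrays) and natural Foxp3-delta cells from heterozygous females (2 arrays). Activated T cells (4 arrays) were conventional cells given anti-CD3 and anti-CD28 without TGF-beta, and activated natural Treg (3 arrays) were natural Treg given both antibodies with TGF-beta. Induced Treg (5 arrays) were the EGFP+ cells, and failed induced Treg (3 arrays) the EGFP- cells, of conventional cells cultured for 3 days with both antibodies and TGF-beta. Induced Foxp3-delta cells (3 arrays) were made in the same way from the EGFP- cells of Foxp3deltaEGFP males. Sorted cells of both induced kinds were in addition cultured for 1 week with 100 units per ml of interleukin 2 (2 arrays each). The labels give no ages. They do not say whether numbered samples came from separate animals or cultures, so the p-values weigh a sample-to-sample spread that may be technical.

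The arrays did not read as T cells, and each group is therefore called the arrays labelled with its name. Of 11 measured T cell markers, 4 lay above the background level on all arrays, and their median level was 14.6. Myelin, neuron and astrocyte markers had medians of 11895, 6176 and 5377, and the 11 microglia and macrophage markers, all above background on every array, one of 306. The background level was read from 27 bacterial control probe sets with nothing spiked in: their median was 8.55, and their 95th percentile lay between 10.5 and 14.9 on single arrays. In a bulk sample, fewer cells of a type and less RNA per cell cannot be told apart. The arrays also fell into 3 technical sets of 15, 6 and 10, found by clustering on array brightness and on the hybridisation controls (cre against bioB). All arrays labelled natural Treg or conventional T, and those of both interleukin 2 cultures, belonged to set 1. Set 3 took in all 3 labelled activated natural Treg and 3 of the 4 labelled activated T.

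The promoters of 5 members share the element named above, and those stretches are shown because they are what these genes have in common outside the arrays. In the RefSeq promoter table of build GRCm38.p6 (300 bases per start site, 250 before it and 50 after it), 8 of the 9 members had an entry, with 9 windows. GAAANNGAAA was searched on both strands, where the opposite strand reads TTTCNNTTTC. It was found in 5 of the 8 members, in 39.1% of 46 other interferon stimulated genes with an entry and in 3.99% of 27025 genes in all (3.44% of the 32851 windows). Each stretch reads 5′ to 3′ on the gene's strand, with matches in capitals, and overlapping matches run together.
Isg15, chr4:156200850-156200921, minus strand: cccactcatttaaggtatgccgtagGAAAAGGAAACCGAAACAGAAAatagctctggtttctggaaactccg
Bst2, chr8:71537562-71537627, minus strand: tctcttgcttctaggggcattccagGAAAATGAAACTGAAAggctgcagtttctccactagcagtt
Rsad2, chr12:26456538-26456597, minus strand: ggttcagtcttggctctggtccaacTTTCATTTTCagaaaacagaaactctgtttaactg
Ifit3, chr19:34583348-34583441, plus strand: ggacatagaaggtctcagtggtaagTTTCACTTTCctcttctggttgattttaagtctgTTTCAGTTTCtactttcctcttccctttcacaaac
Ifit1, chr19:34640760-34640838, plus strand: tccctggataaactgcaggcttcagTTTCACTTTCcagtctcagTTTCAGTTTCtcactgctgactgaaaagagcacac
Isg15 carried 3 overlapping matches and Bst2 carried 2, all on the gene's strand. Ifit1 and Ifit3 carried 2 separate matches each and Rsad2 carried 1, all on the opposite strand. No match was found in the windows of Ifit2, Oasl2 and Irf7. Usp18 was not listed.

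**Figure D1:**
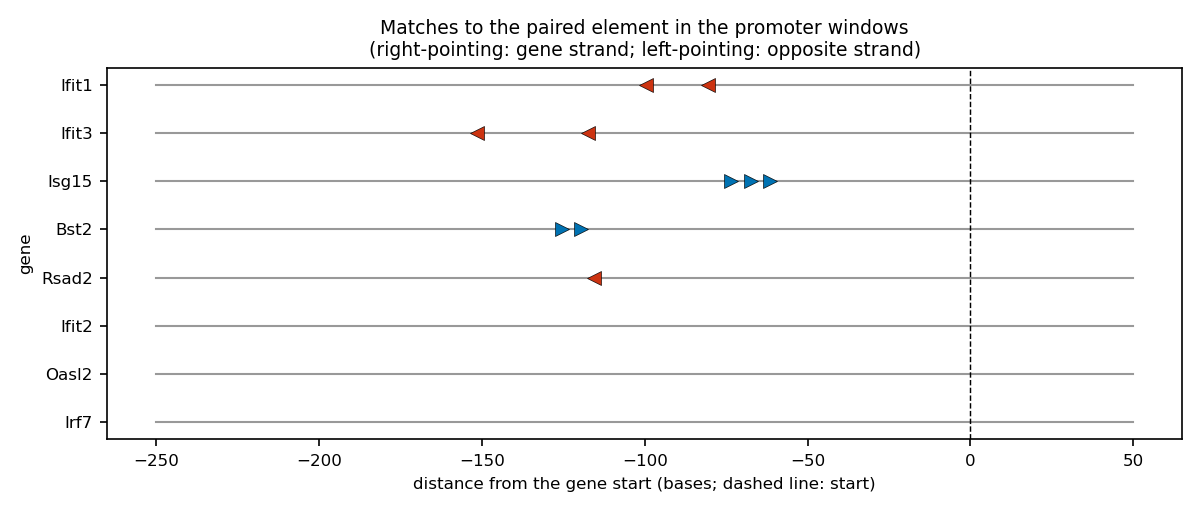
Matches to the paired GAAA element in the promoter windows of 8 members, by distance in bases from the gene start; right-pointing marks lie on the gene's strand and left-pointing marks on the opposite strand. The matches of Isg15, Bst2, Rsad2, Ifit3 and Ifit1 all lie upstream of the start, between positions -156 and -57.

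The probe set representing each of the 8 genes, and the shared Isg15 probe set, were above background on all 31 arrays, at low to middle brightness. Over the 31 arrays the normalised intensity averaged 57.9 ± 8.34 (SD, n = 31) for Ifit1, 144 ± 20.8 for Ifit2 and 290 ± 42.4 for Ifit3. It averaged 38.5 ± 6.46 for Oasl2, 38.5 ± 5.30 for Rsad2, 76.7 ± 9.05 for Bst2, 50.1 ± 10.4 for the shared probe set, 25.7 ± 4.19 for Usp18 and 24.4 ± 3.60 for Irf7. Brightness of different probe sets depends on the probes, so these levels do not rank the genes. For the 9 probe sets the brightest array exceeded the dimmest by between 1.67-fold (Bst2) and 2.46-fold (Oasl2).

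**Figure D2:**
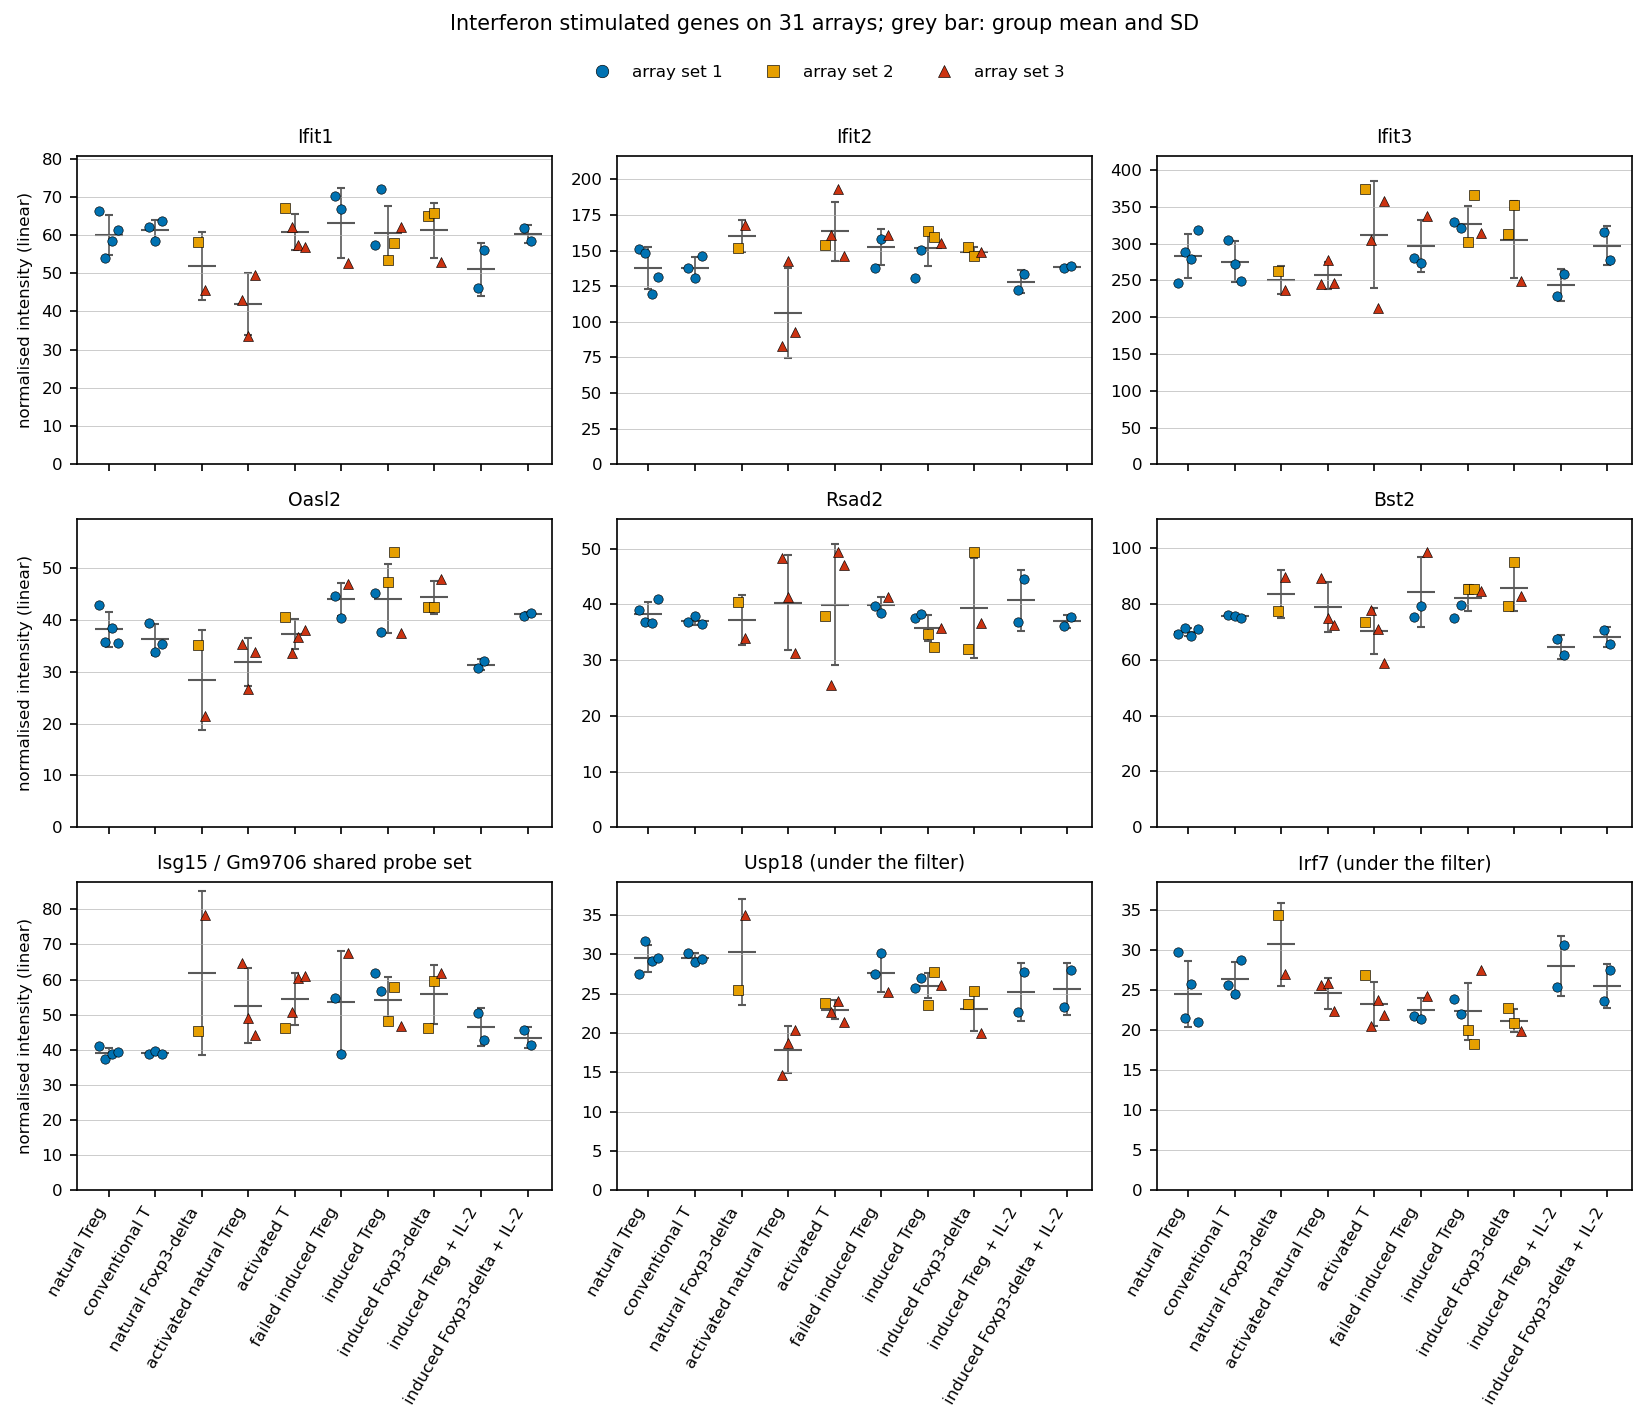
Normalised intensity (linear axis from 0) of each member on each of the 31 arrays, by label group, with the technical array set as colour and shape and the group mean and SD as a grey bar. Ifit1 and Usp18 are lowest on the arrays labelled activated natural Treg, and the shared Isg15 probe set lies within 37.5 to 41.0 under the natural Treg and conventional T labels.

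Across the 10 label groups, 3 of the 6 tested members differed by limma's F test (adjusted p under 0.05, Benjamini-Hochberg over all genes): Oasl2, Ifit2 and Ifit1. With single arrays left out in turn, Oasl2 was called in 31 of 31 fits, Ifit2 in 26 and Ifit1 in 7. Of all genes tested, 13.6% were called in the same way. Without the filter on low values, the called members were Usp18, Oasl2 and Ifit2, beside 9.52% of 18194 genes. With the array set as a block, 0 of the 6 were called (limma adjusted p of Oasl2 0.0595). Far fewer of all genes were called there as well, as counted in the closing section. Within the largest array set alone, 0 of the 6 were called (adjusted p of Oasl2 0.203). That set held no arrays labelled activated natural Treg, activated T, natural Foxp3-delta or induced Foxp3-delta. The share of all genes called within it is not given here. Of 10 contrasts between label groups, members were called in 1.

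Ifit1, which binds viral RNA ends that lack the host's cap methylation, was lowest on the arrays labelled activated natural Treg. It read 42.9, 33.5 and 49.4 there and 66.3, 54.0, 58.4 and 61.4 on those labelled natural Treg, so these groups did not overlap. The same held, in this direction, for 14.6% of tested genes. On the arrays labelled activated T it read 67.0, 62.2, 57.3 and 56.9, and on those labelled conventional T it read 62.0, 58.3 and 63.6. The arrays labelled induced Treg read 57.3, 72.1, 53.6, 57.9 and 62.2, those labelled failed induced Treg 70.1, 66.7 and 52.6, and those labelled induced Foxp3-delta 65.0, 65.7 and 52.9. The natural Foxp3-delta label gave 58.1 and 45.5, and the interleukin 2 cultures gave 46.1 and 56.0 for induced Treg against 61.9 and 58.6 for the delta allele. Thus 7 group means lay close together, the highest at 63.2, and the arrays labelled natural Foxp3-delta, induced Treg with interleukin 2 and activated natural Treg lay below them at 51.8 ± 8.91 (SD, n = 2), 51.0 ± 7.00 (n = 2) and 42.0 ± 8.03 (n = 3). In that order of the groups, the steps that exceeded the pooled SD within groups were those from natural Treg to natural Foxp3-delta (1.28 SD) and from induced Treg with interleukin 2 to activated natural Treg (1.62 SD). The F test across groups gave an adjusted p of 0.0470 in limma.

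Ifit2, a family member that protects neurons from neurotropic viruses in mice, was also lowest on the arrays labelled activated natural Treg. It read 83.1, 143 and 93.1 there, against 151, 148, 120 and 132 on those labelled natural Treg, and the second of the 3 activated arrays lay among the natural Treg values. The arrays labelled activated T read 154, 161, 193 and 146, the highest group mean at 164 ± 20.8 (SD, n = 4). Those labelled conventional T read 138, 131 and 146, and those labelled natural Foxp3-delta 152 and 168. Induced Treg labels gave 131, 151, 164, 159 and 155, failed induced Treg labels 138, 158 and 161, and induced Foxp3-delta labels 152, 146 and 149. With interleukin 2 the values were 122 and 134 for induced Treg and 138 and 140 for induced Foxp3-delta. The step that exceeded the pooled SD was the last one, down to activated natural Treg (1.73 SD). The F test gave an adjusted p of 0.0348 in limma.

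Ifit3, which forms complexes with the other Ifit proteins, was not called across groups (limma adjusted p 0.324). The arrays labelled activated T spanned its whole range over the 31 arrays, at 374, 305, 212 and 358. Induced Treg labels gave 330, 321, 302, 367 and 314, and induced Treg labels with interleukin 2 gave 229 and 259, below each of those 5. Natural Treg labels gave 246, 289, 279 and 318, and conventional T labels 305, 272 and 249. Activated natural Treg labels gave 246, 278 and 247, and natural Foxp3-delta labels 263 and 237. Failed induced Treg labels gave 280, 274 and 337, induced Foxp3-delta labels 314, 353 and 249, and the latter with interleukin 2 gave 316 and 278. Among the 10 contrasts, the groups overlapped in all but that of interleukin 2 in induced Treg. No step between neighbouring groups exceeded the pooled SD.

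Oasl2 had the smallest adjusted p across groups among the tested members (0.0212, limma). It lay above the table median of 39.8 on 13 of the 31 arrays, mostly under the labels where it was highest. Under a stricter filter of 16 arrays it was not tested, nor was Rsad2, which lay above that median on 9 arrays. It was highest on the arrays labelled induced Foxp3-delta (42.4, 42.5 and 47.9), induced Treg (45.1, 37.6, 47.3, 53.1 and 37.4) and failed induced Treg (44.5, 40.4 and 46.8). It was lowest on those labelled natural Foxp3-delta (35.2 and 21.5), induced Treg with interleukin 2 (30.7 and 32.1) and activated natural Treg (35.3, 26.7 and 33.7). Natural Treg labels gave 42.9, 35.8, 38.5 and 35.6, conventional T labels 39.5, 33.8 and 35.4, activated T labels 40.5, 33.7, 36.6 and 38.1, and induced Foxp3-delta labels with interleukin 2 gave 40.8 and 41.4. With the groups ordered by mean, the lowest labels named above read at most 35.3 and the highest at least 37.4. Each remaining group had values in the higher range. The groups at both ends were picked by these same values, which favours such a gap, and the share of all genes with one was not computed. Between neighbouring groups, 1 step exceeded the pooled SD, by a ratio of 1.03. The second natural Foxp3-delta array held the lowest value of all. Natural Treg labels exceeded natural Foxp3-delta labels by 0.30 (log2 scale, SE 0.11, adjusted p 0.167), and by 0.53 or 0.08 when the first or the second array of that label was left out (adjusted p 0.0326 and 0.944), where the lone array is assumed to vary like the other groups.

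Rsad2 was not called across groups (limma adjusted p 0.99): its 10 group means lay between 35.7 and 40.7. Arrays labelled activated T read 38.0, 25.5, 49.3 and 47.1, which nearly spans the range over all 31 arrays of 25.5 to 49.4. The 2 other probe sets of the gene averaged 15.0 ± 2.44 and 15.1 ± 1.45 (SD, n = 31) and were above background on 26 and 28 arrays, so the probe sets disagree on how far the transcript rises above background.

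Bst2, also a surface marker of plasmacytoid dendritic cells in mice, missed the threshold across groups (limma adjusted p 0.0515). Its group means were highest on the arrays labelled induced Foxp3-delta (79.3, 94.9 and 82.8) and failed induced Treg (75.2, 79.3 and 98.7), and lowest with interleukin 2, at 67.5 and 61.6 for induced Treg against 70.8 and 65.7 for the delta allele. Natural Treg labels gave 69.4, 71.3, 68.5 and 70.9, all below the 76.2, 75.6 and 75.1 of conventional T labels, a difference of -0.09 (log2 scale, SE 0.08) that limma did not call (adjusted p 1.00). The share of all genes that separate these labels on every array was not computed. Activated natural Treg labels gave 89.1, 75.1 and 72.6, activated T labels 73.6, 77.9, 71.0 and 59.0, and natural Foxp3-delta labels 77.6 and 89.7. Induced Treg labels gave 75.1, 79.8, 85.5, 85.3 and 84.7. No step between neighbouring groups exceeded the pooled SD.

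The probe set shared by Isg15 and Gm9706 was uniform under the natural Treg and conventional T labels, all in set 1. It read 41.0, 37.5, 38.7 and 39.4 on the arrays labelled natural Treg and 38.8, 39.8 and 38.9 on those labelled conventional T. It was higher and more scattered on activated natural Treg labels (64.6, 49.0 and 44.1), activated T labels (46.1, 50.7, 60.3 and 61.0) and natural Foxp3-delta labels (45.3 and 78.4). Failed induced Treg labels gave 54.8, 38.8 and 67.6, induced Treg labels 61.8, 56.8, 48.3, 57.8 and 46.8, and induced Foxp3-delta labels 46.1, 59.5 and 61.8. With interleukin 2 it read 50.4 and 42.8 for induced Treg and 45.6 and 41.4 for the delta allele, all above the natural Treg and conventional T values. The share of all probe sets that separate in this way was not computed. Among 22119 probe sets tested singly, it was not called across groups (limma adjusted p 0.112), nor between activated T and conventional T labels (0.35 on the log2 scale, SE 0.13, adjusted p 0.111), nor between activated natural Treg and natural Treg labels (0.30, SE 0.13, adjusted p 0.120). Its widest contrast, natural Treg minus natural Foxp3-delta labels, was -0.46 (SE 0.15, limma adjusted p 0.150) and was not called either.

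Usp18, the protease that removes Isg15, was dim but separated by label. It read 14.6, 18.7 and 20.3 on the arrays labelled activated natural Treg and 27.5, 31.7, 29.2 and 29.6 on those labelled natural Treg, with no overlap. Of the genes past the filter, 14.6% also lay lower on every one of these activated arrays. Conventional T labels gave 30.2, 29.0 and 29.4, activated T labels 23.8, 22.7, 24.0 and 21.4, and natural Foxp3-delta labels 25.5 and 35.0. Induced Treg labels gave 25.8, 27.0, 23.6, 27.8 and 26.1, failed induced Treg labels 27.5, 30.2 and 25.2, and induced Foxp3-delta labels 23.6, 25.3 and 20.1. With interleukin 2 it read 22.6 and 27.8 for induced Treg and 23.3 and 28.0 for the delta allele. The step from the other groups down to activated natural Treg was 2.28 times the pooled SD, the largest of any member. Because Usp18 lies under the filter, it was tested only in a fit without the filter: the difference between activated natural Treg and natural Treg labels was -0.43 (log2 scale, SE 0.07), with an adjusted p of 0.000958 in limma, beside 12.1% of 18194 genes called. The call was made when any of the 7 arrays was left out (adjusted p between 0.000979 and 0.00885), and was lost with the array set as a block (-0.37, SE 0.10, adjusted p 0.118). The dimmest of these values, 14.6, lies within the range of the background percentiles given above, so the size of the difference is limited by background.

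Irf7, the amplifying factor, ranged from 18.3 to 34.4. Its highest values were on the first array labelled natural Foxp3-delta (34.4) and the second labelled induced Treg with interleukin 2 (30.7), and its group means ran from 21.2 ± 1.48 (SD, n = 3) on induced Foxp3-delta labels to 30.7 ± 5.21 (n = 2) on natural Foxp3-delta labels. No step between neighbouring groups exceeded the pooled SD. In the fit without the filter it was not called across groups (limma adjusted p 0.214) or between activated natural Treg and natural Treg labels (0.01, SE 0.08, adjusted p 0.966).

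By their labels, activated and resting natural Treg differ in stimulation with both antibodies and TGF-beta. Between these labels, 2 of the 6 tested members were called lower under the activated one. The labels shared no array set, so label and set cannot be told apart. Ifit1 was lower by -0.40 on the log2(intensity + 16) scale (SE 0.10, 95% interval -0.60 to -0.19, limma adjusted p 0.0101), and Ifit2 by -0.36 (SE 0.11, interval -0.59 to -0.12, adjusted p 0.0344). This scale understates the change of dim genes. The other 4 were not called: Ifit3 differed by -0.13, Oasl2 by -0.18, Rsad2 by 0.04 and Bst2 by 0.14. In the deposited values, where the median of all genes shifted by -0.53, Bst2 and Rsad2 were also lower (-0.49 and -0.44), so relative to that shift they stood at 0.04 and 0.09. With the array set as a block Bst2 was at -0.05. In this comparison 16.6% of all tested genes were called, and 7.96% were called lower. The members' median difference was -0.16, against 0.00498 over all genes. Ifit1 and Oasl2 lay lower on every activated array than on any resting one, as did 14.6% of tested genes, and Bst2 lay higher on every one, as did 15.4%.

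These differences came with technical ones. The arrays labelled activated natural Treg had deposited median intensities of 24.2 to 29.3 against 39.0 to 47.7, cre to bioB log2 ratios of 6.19 to 6.25 against 5.02 to 5.24, and actin 3′ to 5′ signal ratios of 2.05 to 2.13 against 1.73 to 1.84. No array set held both labels, so there is no value within a set. With the set as a block, where the comparison runs through the other groups, Ifit1 differed by -0.16 (limma adjusted p 0.643) and Ifit2 by -0.52 (adjusted p 0.165). Within set 3, Ifit1 on the 3 arrays labelled activated T (62.2, 57.3 and 56.9) lay above all 3 labelled activated natural Treg. So did the arrays of that set labelled induced Treg, failed induced Treg and induced Foxp3-delta. The natural Foxp3-delta array of that set (45.5) lay among the activated natural Treg values. That array also had a cre to bioB log2 ratio of 6.38 and an actin ratio of 2.19, while its Ifit2 value lay above all 3 activated natural Treg values. Usp18 in set 3 read 22.7, 24.0 and 21.4 on activated T labels, just above the activated natural Treg values. It read 20.1 on the induced Foxp3-delta label, below the highest of them (20.3), and 35.0 on the natural Foxp3-delta label, the highest of all 31 arrays. The induced Treg and failed induced Treg arrays of set 3 also lay above all activated natural Treg values. Left out singly, the second activated array ended the call for Ifit1 (-0.29, adjusted p 0.0716). The call for Ifit2 was lost without the first (-0.22, adjusted p 0.233) or the third (-0.29, adjusted p 0.129) activated array, and without the first, the second or the fourth resting array (highest adjusted p 0.0902). Of the marker lists, the summed level of 11 microglia and macrophage markers was 4442 to 4827 on activated and 4400 to 4773 on resting labels, that of 7 endothelial markers 2136 to 2599 against 2025 to 2190, and that of 11 T cell markers 291 to 328 against 283 to 291. The 5 plasmacytoid dendritic cell markers summed to 1030 to 1245 against 1206 to 1450. Most of that sum was Tcf4 (mean 1131 over the 31 arrays). The other tested marker of that list, Siglech, differed by 0.07 (SE 0.15) and was not called. Single markers called by limma were C1qb (-0.30, 1 of 11 tested microglia and macrophage markers) and Tcf4 (-0.32, 1 of 2 plasmacytoid). Called higher were Cd3e (0.59, 1 of 2 tested T cell markers) and Cdh5 (0.39, 1 of 7 endothelial), beside 16.6% of all genes called. The part of these markers in the result was not tested.

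**Figure D3:**
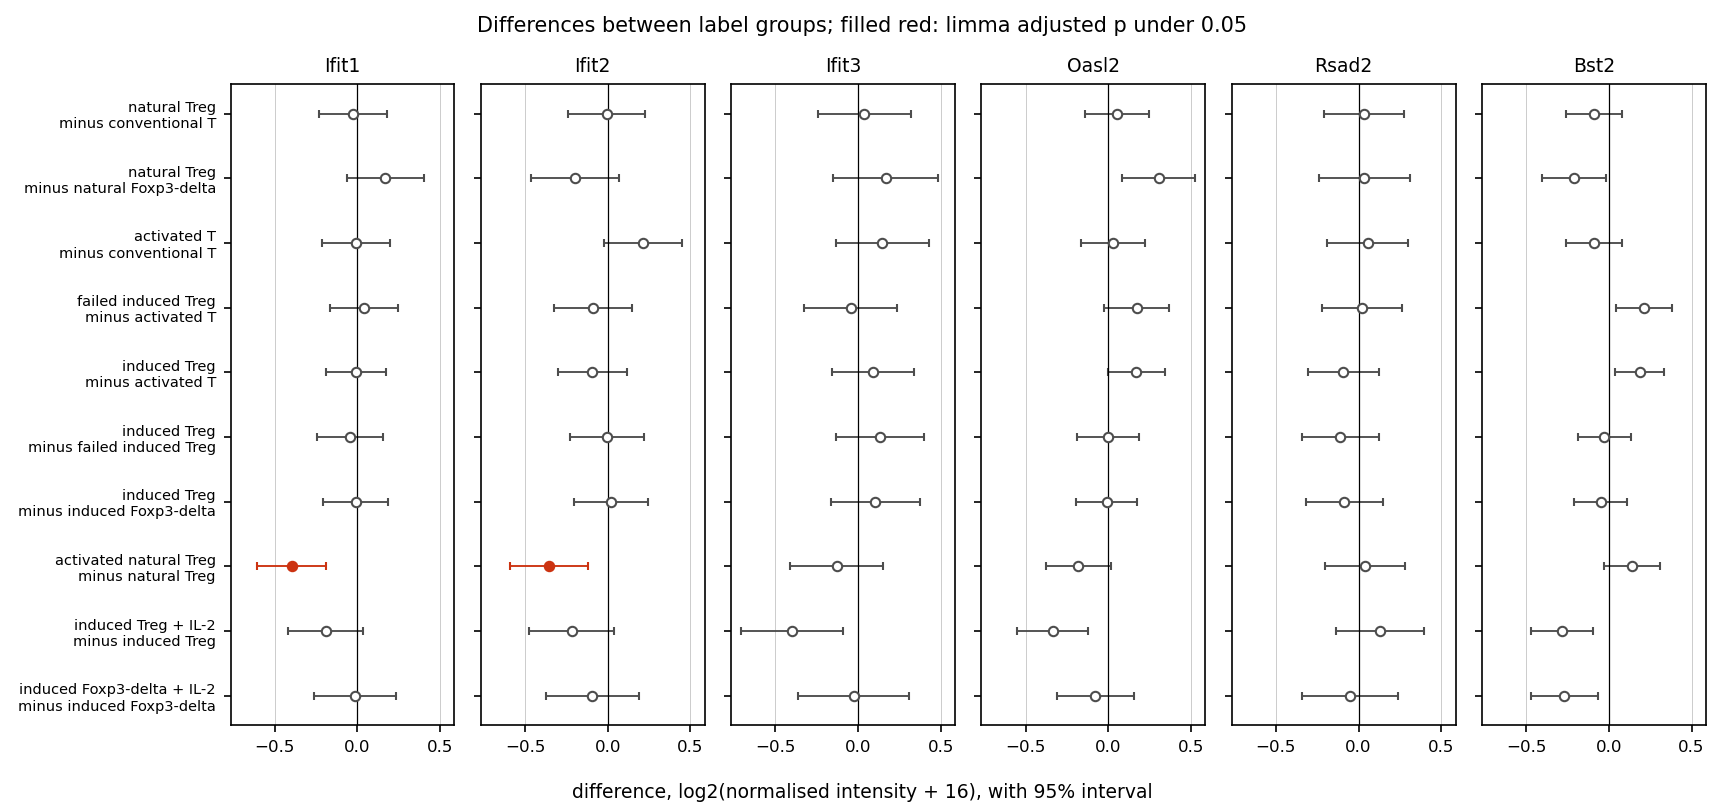
Differences between label groups in log2(normalised intensity + 16) for the 6 tested members in 10 comparisons, as the limma estimate with its 95% interval. Filled red points mark adjusted p under 0.05: Ifit1 (-0.40) and Ifit2 (-0.36), both lower under the activated natural Treg label than under the natural Treg label.

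Arrays labelled induced Treg with a further week in interleukin 2 were compared with those labelled induced Treg. Here 0 of 6 members were called by limma, beside 2.18% of all genes. At an unadjusted p under 0.05 there were 3 members, beside 2075 of 12169 genes. Oasl2 differed by -0.34 (SE 0.10, adjusted p 0.0839), Bst2 by -0.28 (SE 0.09, adjusted p 0.0913) and Ifit3 by -0.40 (SE 0.15, adjusted p 0.165). These 3 lay lower on both interleukin 2 arrays than on all 5 induced Treg arrays, as did 12.6% of tested genes. Within set 1, which held both interleukin 2 arrays and 2 of the induced Treg arrays, the differences were -0.27 for Oasl2, -0.22 for Bst2 and -0.40 for Ifit3, with adjusted p between 0.0647 and 0.0971. When set 3 was left out of the fit, the count of members called was 3, beside 5.64% of all genes. For induced Foxp3-delta labels, whose arrays before and after interleukin 2 shared no set, 0 of 6 members were called, beside 0.304% of genes. Unadjusted, 1 member passed (Bst2 at -0.27, SE 0.10), beside 2002 of 12169 genes. Ifit2, Oasl2 and Bst2 lay lower on both interleukin 2 arrays than on every one before it, as did 20% of tested genes. The interaction, which tests whether the interleukin 2 difference depended on the Foxp3 allele, called 0 members and 0% of genes (unadjusted, 0 members and 349 of 12169 genes). Its estimates were widest for Ifit3 (-0.37, SE 0.22) and Oasl2 (-0.26, SE 0.15).

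In the remaining 7 comparisons limma called 0 of the 6 members. Natural Treg against conventional T labels, the comparison of the resting lineages, had 0 members at an unadjusted p under 0.05, beside 321 of 12169 genes. After adjustment 0.00822% of genes were called, and the intervals for the members lay between -0.26 and 0.32. Natural Treg against natural Foxp3-delta labels had 2 unadjusted (Oasl2 at 0.30, SE 0.11, and Bst2 at -0.21, SE 0.09), beside 1954 of 12169 genes. After adjustment 0.0493% of genes were called. Activated T against conventional T labels had 0 unadjusted, beside 2967 of 12169 genes, and 6.71% of genes were called after adjustment. Its largest member difference was that of Ifit2 (0.21, SE 0.11, adjusted p 0.253). Failed induced Treg against activated T labels had 1 unadjusted (Bst2 at 0.21, SE 0.08), beside 1601 of 12169 genes, and 0.0411% of genes were called after adjustment. Induced Treg against activated T labels also had 1 (Bst2 at 0.19, SE 0.07), beside 1331 of 12169 genes, and 0.0493% of genes were called after adjustment. Induced Treg against failed induced Treg labels, 2 groups that the labels derive from the same cultures without matching single samples, had 0 unadjusted, beside 509 of 12169 genes. After adjustment 0% of genes were called, and the intervals for the members lay between -0.34 and 0.40. Induced Treg against induced Foxp3-delta labels, the comparison of the Foxp3 allele, had 0 unadjusted, beside 343 of 12169 genes. After adjustment 0% of genes were called, and the intervals for the members lay between -0.32 and 0.37.

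No pair of members passed the test of correlation over the arrays. Among 28 pairs of the 8 genes, Pearson's r over 31 arrays had a median of 0.02 and ran from -0.42 (Oasl2 with Irf7) to 0.50 (Ifit1 with Oasl2). 14 pairs were positive. By permutation (100000 resamples, two-sided), 7 pairs had an unadjusted p under 0.05, and 0 passed after Benjamini-Hochberg adjustment over the 28 pairs; Spearman's rho gave 0 as well. Ifit1 and Oasl2 had r = 0.50 (permutation p 0.00526, adjusted 0.0736) and rho = 0.34 (permutation p 0.0656, adjusted 0.262), with r = 0.38 without the 2 arrays farthest from the median of Ifit1. Ifit3 and Oasl2 had r = 0.49 (permutation p 0.00496, adjusted 0.0736) and rho = 0.50 (permutation p 0.00422, adjusted 0.118), with r = 0.52 without the 2 farthest. Ifit1 with Usp18 had r = 0.45, which was 0.11 without the 2 arrays farthest from the median of Ifit1, so it rests on those arrays. With the label group means taken off, r was 0.13 for Ifit1 with Oasl2 and 0.10 for Ifit3 with Oasl2. Within the array sets of 15, 6 and 10, Ifit1 with Oasl2 gave 0.58, -0.34 and 0.51, and Ifit3 with Oasl2 gave 0.44, 0.54 and 0.32; 0 of the 28 pairs passed in any set. The neighbouring genes Ifit1 and Ifit2, both on chromosome 19, had r = 0.32 (permutation p 0.0768, adjusted 0.269) over all arrays and -0.38 once group means were taken off. In the deposited values, before the arrays were brought to a common level, the median r over the pairs was 0.78.

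**Figure D4:**
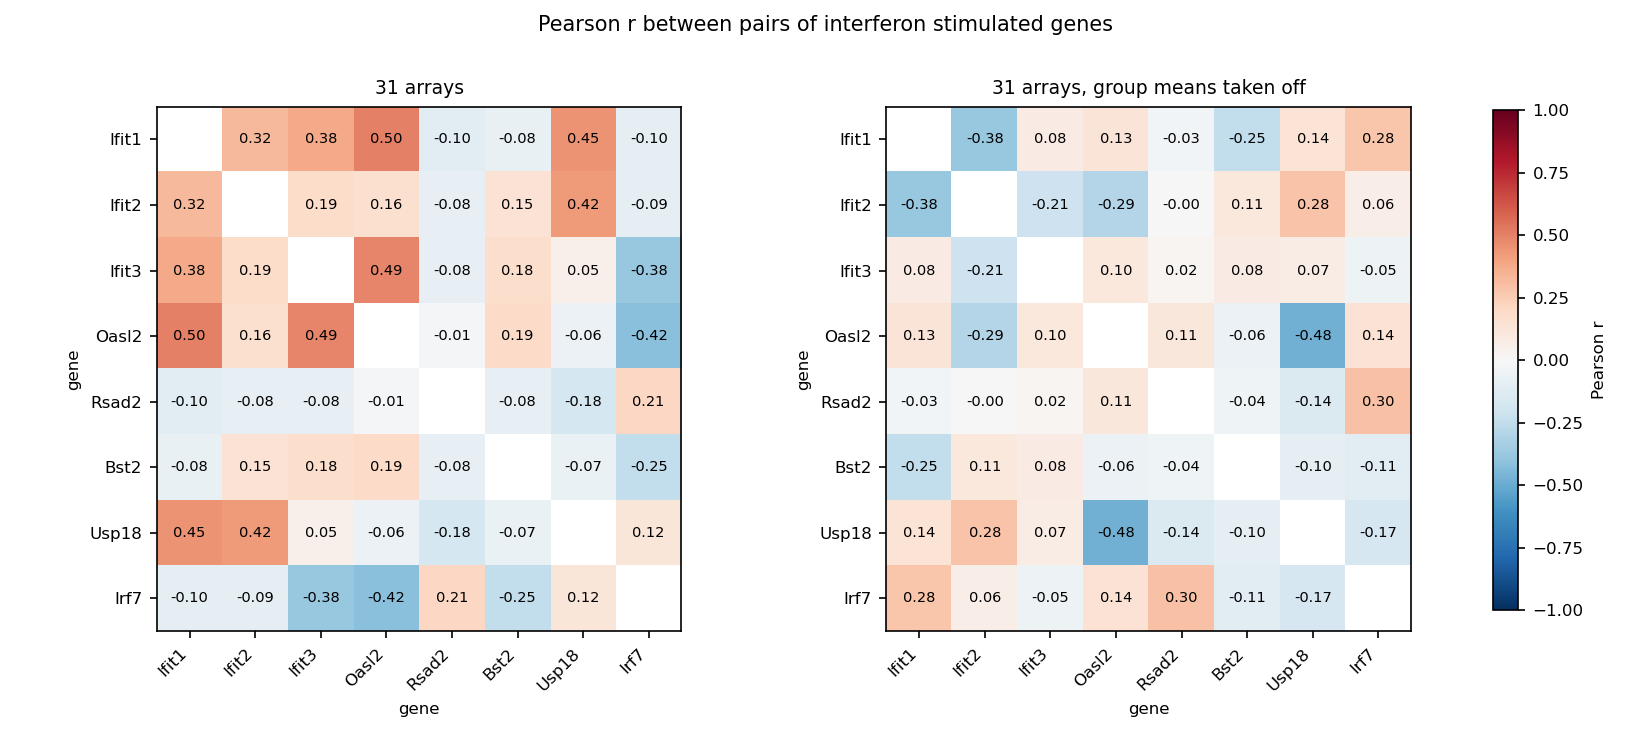
Pearson r for the 28 pairs of 8 members over 31 arrays (left) and after label group means were taken off (right), on a colour scale from -1 to 1. The highest value on the left is 0.50 (Ifit1 with Oasl2), and the values on the right run from -0.48 to 0.30.

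The genes whose pattern was most like the mean of the 6 tested members over the 31 arrays were Kdm1a (r = 0.84), Tomm20 (0.76), Ndrg4 (0.76), Efhd2 (0.73), Ssbp2 (0.72) and Eif4b (0.71), chosen as the highest of all tested genes and so a description. Within array sets 1, 2 and 3, Kdm1a, a histone demethylase, gave 0.89, 0.69 and 0.81. For the others, the lowest value within a set was 0.34 for Tomm20 and 0.15 for Efhd2 (both in set 2), and 0.38 for Ndrg4, 0.54 for Ssbp2 (both in set 1) and 0.55 for Eif4b (set 2). The 41 tested genes of a list of other interferon stimulated genes had a median r of -0.05 with that mean, from -0.64 to 0.58 (Phf11d), beside 0.00 for all genes.

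The rest of the pathway was described from lists of named genes. Of 12 interferon genes listed, 7 were measured and none passed the filter on low values. Of the 9 tested receptor and signalling genes, 1 differed across groups (11.1%, beside 13.6% of all genes), Jak1 (limma adjusted p 0.0192). Between activated and resting natural Treg labels 2 were called (22.2%, beside 16.6% of all genes). Jak1 was lower by 0.91 on the log2 scale (SE 0.20, adjusted p 0.00453) and Ifnar2 higher by 0.35 (SE 0.10, adjusted p 0.0170). Of 5 interferon regulatory factors, Irf1, which drives many genes of the interferon gamma response, was called across groups (adjusted p 0.0144); in the same comparison it rose by 0.49 (SE 0.13, adjusted p 0.0145) and Irf2, its antagonist, fell by 0.42 (SE 0.13, adjusted p 0.0285). With the array set as a block, Irf1 differed by -0.082 (adjusted p 0.776), and in the deposited values by -0.18, which is 0.35 relative to the shift of all genes there.

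Of 9 tested sensors and adaptors, 3 differed across groups (33.3%, beside 13.6% of all genes): Myd88, the Toll-like receptor adaptor, the adaptor Ticam1 and the kinase Tbk1. Between activated and resting natural Treg labels 2 were called (22.2%, beside 16.6% of all genes). Myd88 was higher by 0.49 (SE 0.10, limma adjusted p 0.00251) and Tbk1 lower by 0.30 (SE 0.07, adjusted p 0.00915). In the deposited values Myd88 stood at -0.17, which is 0.36 relative to the shift of all genes. Of 5 tested feedback genes, 0 were called across groups or in that comparison, and Ptpn2, a phosphatase of the Jak kinases, differed by 0.07 (SE 0.05). Among 41 other interferon stimulated genes, 9 were called across groups (22.0%, beside 13.6% of all genes). Those with the smallest adjusted p were Cmpk2, a mitochondrial nucleotide kinase whose gene lies beside Rsad2, Gbp6, Daxx and Adar. Between activated and resting labels 5 were called higher and 3 lower (19.5%, beside 16.6% of all genes). Gbp6, a guanylate binding protein, was higher by 0.29 (SE 0.07, limma adjusted p 0.00951), and was at -0.33 in the deposited values, 0.20 relative to the shift of all genes. Cmpk2 was lower by 0.84 (SE 0.18, limma adjusted p 0.00465) and Daxx by 0.64 (SE 0.10, adjusted p 0.000412). The list's median difference was -0.02, against 0.00498 over all genes.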

How the data were processed

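Per the labels, total RNA was biotin labelled; the file's control probe sets are those of Affymetrix arrays. The deposited table holds linear intensities per probe set. The summarisation and scaling the authors applied are not given in the sources used here. Here they were quantile normalised and analysed as log2(intensity + 16). Each gene was represented by its single-symbol probe set with the highest mean (34958 probe sets carried 1 symbol, 932 several, 9211 none listed), and genes above the table median on at least 2 arrays were tested. limma 3.58.1 in R 4.3.3 (lmFit, eBayes) fitted 1 mean per label group over all 31 arrays, and the fit was tested on simulated data. Correlations and promoter matches used Python 3.11.15 and NumPy 2.4.6. Named were all members, the 6 genes most like their mean, and per pathway list up to 4 genes called across groups, or the one with the smallest p; Ifnar2 and Irf2 were named after their values were seen. Promoter sequences are RefSeq's (GRCm38.p6). The members, the pathway and marker lists and the quantile normalisation were chosen with earlier results of these data known. The background level, the array sets and the settings without a set were also chosen after seeing the data. Replicate numbers did not pair the samples. B cell, plasmacytoid dendritic cell, neutrophil and red cell markers had median levels of 14.4, 31.0, 296 and 19.9, and endothelial markers one of 232.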

Additional observations from a re-analysis of the deposited data

How the results depend on the processing

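Members called across groups numbered 3, and 5 in the values as deposited, 0 with the array set as a block, 0 within the largest array set, 0 without set 1, 0 without set 3 and 1 to 4 with single arrays left out (Ifit1 was called in 7 of those 31 fits, Ifit2 in 26 and Oasl2 in 31). The count of 2 between activated and resting natural Treg labels became 6 in deposited values, 0 with the set block, 1 with only the groups compared, 1 without set 2 and 1 to 2 with single arrays left out. All genes called in that comparison numbered 2016, and 45 with the set block and 6932 in deposited values; across groups they numbered 1653, and 153 with the set block, 6038 in deposited values and 3973 with array medians scaled. Deposited values also gave 1 member for activated T against conventional T (10.6% of all genes) and 5 for induced Treg against activated T (59.3%). Natural Treg against natural Foxp3-delta had 1 without set 2 and 0 to 1 with single arrays left out; the call rests in both on the same lone natural Foxp3-delta array, with its spread taken from the other groups. Members called without set 3 for interleukin 2 in induced Treg numbered 3. The median correlation was 0.78 in deposited values, 0.16 over members past the filter and 0.18 past a stricter one. In deposited values the median of all genes shifted by -0.53 (activated against resting natural Treg), 0.46 (induced Treg against activated T), -0.36 (activated T against conventional T) and -0.31 (interleukin 2 in induced Treg), and scaling by array medians shifted it by 0.17 and -0.14 in the last 2. Reversed in deposited values were Ifit1 and Ifit2 between induced Treg and activated T (0.43 and 0.42) and, between activated and resting natural Treg, Bst2 (-0.49), Rsad2 (-0.44), Ptpn2 (-0.52), Irf1 (-0.18), Gbp6 (-0.33) and Myd88 (-0.17); the set block reversed Irf1 (-0.082). Relative to the median shift, the signs in deposited values were not reversed: Ifit1 and Ifit2 stood at -0.02 and -0.04 between induced Treg and activated T, and, between activated and resting natural Treg, Bst2 at 0.04, Rsad2 at 0.09, Ptpn2 at 0.01, Irf1 at 0.35, Gbp6 at 0.20, Myd88 at 0.36, Ifit1 at -0.37 and Ifit2 at -0.46. The cause was not tested where none is named. Of 535 recomputed member counts 513 stayed within 1.5 times. Most of these set a count of 0 against 0, so this share does not describe the comparisons in which members were called. Of 3325 recomputed differences 134 changed sign, 4 of them called in the reported setting. Replicate numbers did not pair the samples (12 of 114 same-number pairs correlated above 0.1, median r 0.00); with the replicate block 2 members were called between activated and resting natural Treg, and Ifit1 had an adjusted p of 0.0570 across groups. Precision is limited by groups of 2 to 5 arrays and, for Usp18, Irf7 and 2 Rsad2 probe sets, by signal near background.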
